A study of Mus musculus with 6 samples.

Results

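The 37 genes described here encode the chains of laminins and integrins in mouse intestine. They are the rows of a table of 32219 genes whose symbol is that of an integrin alpha subunit (18 genes), an integrin beta subunit (8 genes) or a laminin chain (11 genes). The table holds whole-tissue RNA-seq of 6 libraries, 3 of them wild type (WT) and 3 knockout (KO) by their labels, from poly(A)-selected RNA. The labels describe primary intestinal tissue with epithelium, immune cells and enteric neurons, and the design text names the duodenum. Which gene was knocked out, how, and the age, sex and strain of the mice, were not given in the sources used here. Nothing in the labels says that the libraries came from separate animals. The p-values therefore set each difference against the spread between libraries, which may be technical.

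Laminins are secreted trimers of 1 alpha, 1 beta and 1 gamma chain that assemble into the sheet of the basement membrane, on which epithelium, muscle, vessels and glia rest. Integrins are receptors of 1 alpha and 1 beta subunit that hold cells to laminin, collagen, fibronectin or to other cells, and that pass signals in both directions across the membrane. In the gut, one set anchors the epithelium, another is found in muscle and stroma, and a leukocyte set directs immune cells to the mucosa.

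In GENCODE vM21 (mm10), all 37 are protein-coding, and some lie close together. Itgam (chr7:128062640-128118491), Itgax (chr7:128129547-128150657) and Itgad (chr7:128154376-128223816) lie in that order on the plus strand, and Itgal lies at chr7:127296260-127335138. Itga2 (chr13:114833081-114932100) lies near Itga1 (chr13:114953096-115101964) on the minus strand. Lamb3 lies at chr1:193207699-193343878 on the plus strand and Itga5 at chr15:103344286-103366763 on the minus strand.

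Values are given on the deposited log scale, taken as log2(abundance + 1). Since the abundance unit, with any scaling by transcript length, is unstated, levels are compared between libraries and not between genes. The library KO 1 held values on chromosomes 1 and 10 to 18 and on the start of 19, and 16 of the 37 members lie where it had none. KO was therefore compared with WT over the 3 WT libraries, KO 2 and KO 3, and KO 1 is described at the end for the 21 members that it covers. The 5 libraries fitted listed 22061 to 22768 genes above 0, and KO 1 listed 9729. Depth is unknown for all of them. The 5 libraries expressed the ileal gene Fabp6 at 8.16 to 8.76 and the proximal factor Gata4 at 0.43 to 0.63, whereas KO 1, after the rescaling described below, stood at 3.91 and 5.19. These levels go against a duodenal origin of the 5 libraries. Of the genes named in the series title, Dhx9 stood at 5.94 to 6.01 in WT, at 6.17 in KO 2 and at 6.08 in KO 3. Ffar3, which encodes GPR41, stood at 0.18 to 0.60 in WT and at 0.35 and 0.59.

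No integrin or laminin gene differed between KO and WT beyond the spread between libraries. By limma with Benjamini-Hochberg adjustment over 22047 genes, 0 of the 37 members passed an adjusted p under 0.05, where 0.00454% of all genes tested did. That is 1 gene, the predicted gene Gm49380, chosen for naming after its value was seen, and it no longer passed when any 1 library was left out. At an unadjusted p under 0.05 there were also 0 members, against 2.23% of all genes tested. Leaving out WT 3 brought Itga10 to an unadjusted p of 0.0491, and adding rescaled KO 1 brought Itgb5 to 0.0488, by limma, with adjusted p of 0.999766 and 0.99994. The adjusted p of every member was 0.999978, and the smallest unadjusted p was 0.119. KO 2 and KO 3 both stood above every WT library in 1 member, where 9.82% of all genes did so, and both stood below in 0 members, where 3.77% did. That member, Itgad, was near 0 throughout and at 0 in WT 1 and WT 2. Of the members, 16 were higher and 21 lower in KO by their means, with a median log2 difference of -0.04. Over all genes tested, 61.1% were higher in KO, with a median of 0.03. Without WT 2 the balance turned to 19 higher of 37 with a median of 0.01, without KO 2 it was 18 of 36 with a median of 0.01, and without KO 3 it was 10 of 36.

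The 95% interval of the difference included 0 for all 37 members. In 33 members the whole interval lay within a log2 difference of 1 in either direction, and in 15 it lay within 0.5. The 4 members whose intervals reached past 1, Itga5, Lamb3, Itgal and Itgb2, are also the 4 that varied most among the 5 libraries. For most members the data thus bound the difference without showing that the groups are alike.

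**Figure D1:**
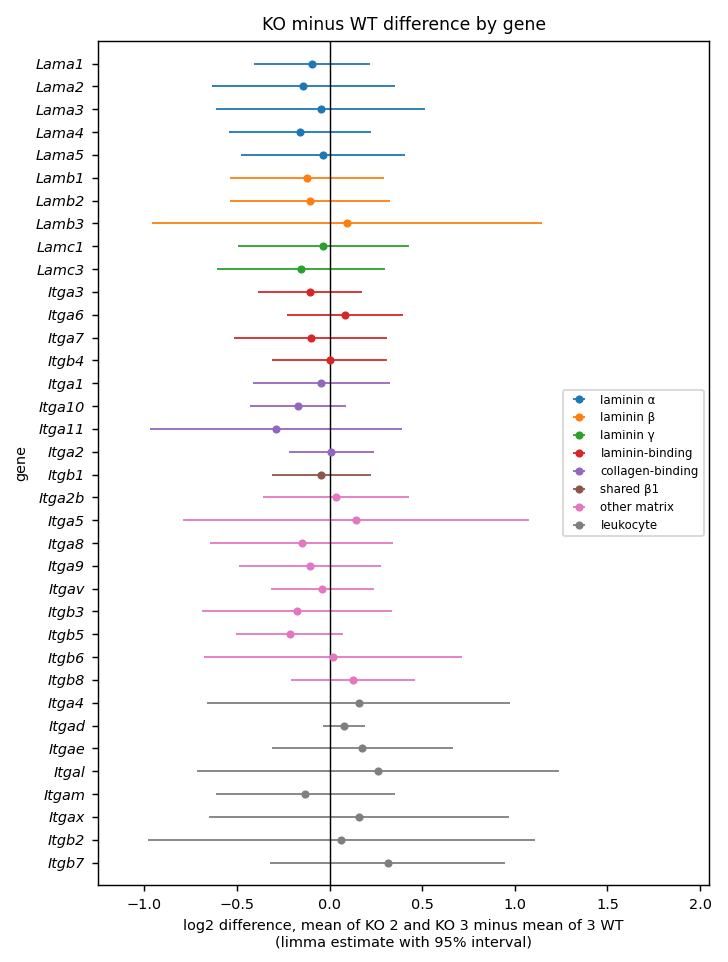
Log2 difference of 36 of the 37 members between the mean of KO 2 and KO 3 and the mean of the 3 WT libraries (x axis, limma estimate as a point, 95% interval as a bar), with genes on the y axis coloured by role. Every interval includes 0, and those of Itga5, Lamb3, Itgal and Itgb2 reach past 1.

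The laminin alpha chains set where a laminin binds its receptors. Lama2, the chain of muscle basement membranes, stood at 3.22, 3.84 and 3.28 in WT, at 3.31 in KO 2 and at 3.29 in KO 3. Lama4, the chain of vessel walls, stood at 4.47, 4.95 and 4.52 in WT and at 4.49 in both KO libraries. In both genes WT 2 was the highest library and the other 4 lay close together. The log2 difference of Lama4 was -0.16 ± 0.16 (SE; unadjusted p = 0.352, adjusted p = 0.999978, limma), and -0.0071 without WT 2. Lama5, the broadly used chain of epithelial and vascular membranes, stood at 3.61, 4.06 and 3.59 in WT and at 3.56 and 3.87 in KO. Lama1, known best from embryonic membranes, ranged from 0.92 to 1.18 in WT and from 0.90 to 0.96 in KO (log2 difference -0.10 ± 0.13, SE, limma, and -0.02 without WT 2). WT 2 was again the highest in both genes, and the groups overlapped.

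The beta and gamma chains shared by most laminins had the same high library. Lamb1 stood at 4.88, 5.35 and 4.82 in WT and at 4.84 and 4.96 in KO. Its usual partner Lamc1 stood at 4.72, 5.32 and 4.89 in WT and at 4.82 and 5.07 in KO. Lamb2, the beta chain known from synapses and the kidney filter, stood at 3.40, 3.65 and 3.33 in WT and at 3.13 and 3.59 in KO. WT 2 was the highest library for each of these 3 genes, and both KO libraries lay below it. Lamc3, a less widespread gamma chain, stood at 1.29, 1.49 and 0.96 in WT and at 1.15 and 1.03 in KO, with a log2 difference of -0.15 ± 0.19 (SE; unadjusted p = 0.437, limma). It was -0.03 without WT 2 and -0.30 without WT 3. In all, WT 2 was the highest of the 5 libraries in 8 of the 11 laminin chains, where it was the highest in 21.8% of all genes tested. The summed linear level of the 11 chains was 171.0 in WT 2, 126.7 in WT 1, 136.8 in WT 3, 122.7 in KO 2 and 151.0 in KO 3. By the KO minus WT difference, 2 of the 11 chains were higher and 9 lower, beside 61.1% of all genes tested that were higher, with a median of -0.10. Without WT 2 there were 5 higher of 11, without KO 2 there were 6 with a median of 0.09, without WT 1 there was 1, and without KO 3 there were 0.

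Lama3 and Lamb3 are chains of the laminin that anchors epithelium through hemidesmosomes, and their profiles over the libraries differed. Lamb3 stood at 3.08, 2.94 and 3.87 in WT and at 2.76 in KO 2 and 4.02 in KO 3. WT 3 and KO 3 were therefore its high libraries, one of each genotype. Lama3 stood at 2.86, 2.66 and 2.45 in WT and at 2.30 and 2.92 in KO, so that WT 3, high for Lamb3, was its lowest WT library. KO 3 was the highest of the 5 libraries for both chains. Lamb3 had the widest range of any member, 1.26 between KO 2 and KO 3. Its SD in WT was 0.50 (n = 3), so its WT and KO means, 3.30 and 3.39, could not be separated.

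**Figure D2:**
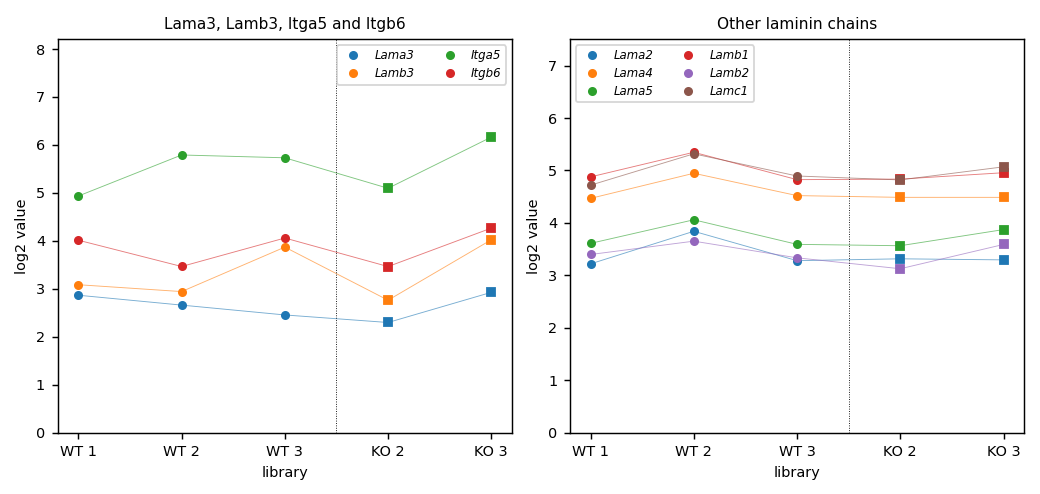
Log2 value (y axis) in the 3 WT libraries (circles) and KO 2 and KO 3 (squares) for Lama3, Lamb3, Itga5 and Itgb6 (left) and for 6 other laminin chains (right); thin lines only link the points of a gene. Lamb3 is high in WT 3 and KO 3, while the chains on the right are highest in WT 2.

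Upstream sequence is shown for the members with the widest ranges among the 5 libraries for which RefSeq (GRCm38.p6) gave a start: Lamb3 and Itga5, high in KO 3, and Itga4, high in WT 2 and KO 2. Each run is the 250 bases before the annotated start, 5′ to 3′ on the gene's strand: Lamb3 at chr1:193301744-193301993 on the plus strand, the first of 2 RefSeq starts, both of which lie inside the longer GENCODE span given above, Itga5 at chr15:103366792-103367041 on the minus strand, and Itga4 at chr2:79255176-79255425 on the plus strand. Capitals mark a match to a searched motif.
Lamb3: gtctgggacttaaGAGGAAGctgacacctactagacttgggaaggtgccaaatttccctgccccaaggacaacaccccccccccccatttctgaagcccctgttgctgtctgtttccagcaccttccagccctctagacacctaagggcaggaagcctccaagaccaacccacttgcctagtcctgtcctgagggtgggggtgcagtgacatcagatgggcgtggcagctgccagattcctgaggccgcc
Itga5: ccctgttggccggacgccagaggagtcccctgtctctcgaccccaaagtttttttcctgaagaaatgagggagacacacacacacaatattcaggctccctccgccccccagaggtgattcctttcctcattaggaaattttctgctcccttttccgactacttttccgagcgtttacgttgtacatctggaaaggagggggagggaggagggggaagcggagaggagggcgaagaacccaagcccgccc
Itga4: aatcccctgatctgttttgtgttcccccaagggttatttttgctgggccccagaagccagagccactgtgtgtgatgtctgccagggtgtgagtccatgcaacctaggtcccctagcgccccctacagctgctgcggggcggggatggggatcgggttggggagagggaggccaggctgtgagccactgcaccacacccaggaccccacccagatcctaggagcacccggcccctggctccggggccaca
The motifs, searched on both strands, were TGANTCA (the AP-1 form), GAGGAAG (a PU.1 and ETS form) and TATAAA (the TATA box). Among the 23 members with an entry, TGANTCA occurred in 1 (Itgax), GAGGAAG in 7 and TATAAA in 0, and of the 3 printed windows only that of Lamb3 held one, GAGGAAG. Over all 32851 windows of this length, TGANTCA occurred in 6.75%, GAGGAAG in 10.6% and TATAAA in 12.4%. A match describes letters only.

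Integrins that bind laminin had the smallest median range over the 5 libraries among the roles with more than 1 member, 0.35, followed by collagen receptors at 0.38. Itga6, the alpha subunit of the hemidesmosome, stood at 6.59, 6.40 and 6.78 in WT and at 6.66 and 6.68 in KO. Its partner Itgb4 stood at 4.98, 4.77 and 5.03 in WT and at 4.79 and 5.08 in KO. Both were lowest in WT 2 among the WT libraries, the opposite of most laminin chains. Itga3, an epithelial laminin receptor subunit, stood at 5.28, 5.04 and 5.37 in WT and at 5.08 and 5.16 in KO, with a log2 difference of -0.11 ± 0.12 (SE; unadjusted p = 0.396, limma) that ran from -0.20 without WT 2 to -0.04 without WT 3. Itga7, the laminin receptor subunit of muscle, ranged from 2.64 to 2.94 in WT and from 2.48 to 2.80 in KO and was highest in WT 2. Exons of Itga7 overlap those of Mettl7b on the opposite strand, and the strand setting of the counting is unstated. Itgb1, the beta subunit that most matrix integrins share, ranged from 6.48 to 6.72 in WT and stood at 6.55 and 6.63 in KO, a range of 0.23 over the 5 libraries against a median range of 0.51 over the 37 members. The median range over all genes tested was 0.32.

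Among collagen receptor subunits, Itga2, found on epithelium and platelets, had one of the smallest ranges, 3.92 to 4.07 in WT against 3.98 and 3.99 in KO. Itga1, found on smooth muscle, vessels and resident T cells, stood at 5.05, 5.49 and 5.21 in WT and at 5.09 and 5.32 in KO. Itga11, a fibroblast subunit, stood at 1.57, 2.10 and 1.30 in WT and at 1.59 and 1.15 in KO, with a log2 difference of -0.29 ± 0.28 (SE; unadjusted p = 0.338, limma). This was the most negative of the 37, but it was -0.07 without WT 2 or without KO 3 and -0.51 without KO 2. WT 2 was the highest library for Itga1 and Itga11. Itga10, known from cartilage, was at 0.74, 0.71 and 0.49 in WT and at 0.54 and 0.41 in KO (log2 difference -0.17 ± 0.11, SE, unadjusted p = 0.164, limma).

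Itga5, the subunit of the main fibronectin receptor, varied more than any other matrix integrin. It stood at 4.93, 5.79 and 5.73 in WT and at 5.10 in KO 2 and 6.16 in KO 3, so each genotype held low and high libraries. Fibronectin itself, Fn1, stood at 6.064, 6.789 and 6.499 in WT and at 6.29 and 6.81 in KO, in the same low libraries, WT 1 and KO 2. Smooth muscle markers had their low libraries in the same place: their median against the mean of the 5 libraries was -0.27 in WT 1 and -0.22 in KO 2, and 0.19, 0.07 and 0.21 in WT 2, WT 3 and KO 3, over 8 of 8 markers, none at 0. Their part in the Itga5 values was not tested. In whole tissue, fewer cells of a type and less RNA per cell cannot be told apart.

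Itgav, which pairs with several beta subunits to bind vitronectin, fibronectin and latent TGF-beta, was steady at 4.42 to 4.60 in WT and 4.33 and 4.59 in KO. Its epithelial partner Itgb6 was not: it stood at 4.01, 3.46 and 4.06 in WT and at 3.46 and 4.26 in KO, low in WT 2 and KO 2. Itgb5, another partner, had the smallest p of the members, with 4.13, 4.20 and 3.98 in WT, 3.77 and 4.01 in KO and a log2 difference of -0.22 ± 0.12 (SE; unadjusted p = 0.119, adjusted p = 0.999978, limma). KO 3 lay within the WT range, and without KO 2 the difference was -0.10. Itgb3, shared by the vitronectin receptor and the platelet receptor, stood at 2.88, 3.52 and 2.97 in WT and at 3.01 and 2.88 in KO (log2 difference -0.18 ± 0.21, SE, limma), which turned to 0.02 without WT 2. Itgb8, which binds latent TGF-beta, ranged from 0.84 to 1.11 in WT and stood at 1.16 and 0.99 in KO (log2 difference 0.13 ± 0.14, SE, limma), a difference of 0.04 without KO 2 and 0.21 without WT 2. Itga8, a mesenchymal subunit, and Itga9, which binds tenascin C among others, were highest in WT 2, at 2.496 and 3.69. Itga2b, the platelet subunit, ranged from 0.40 to 0.87 over the 5 libraries.

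**Figure D3:**
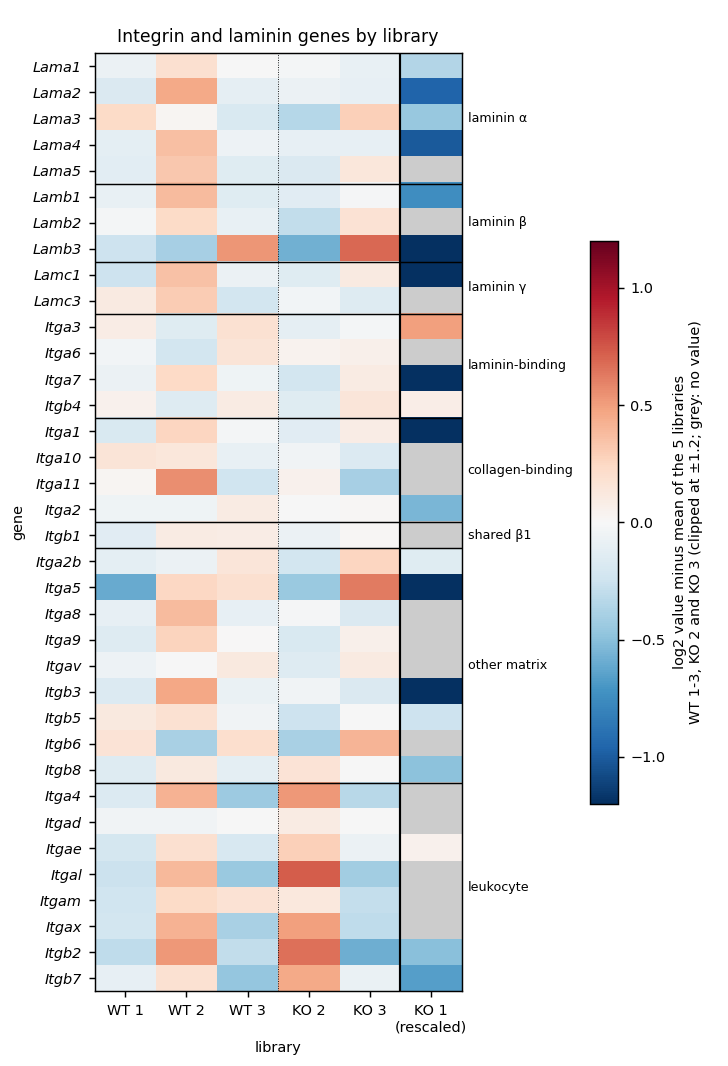
Deviation of 36 of the 37 members (rows, grouped by role) from its mean over WT 1 to WT 3, KO 2 and KO 3 in each library (columns), in log2 units from blue (lower) to red (higher) and clipped at both ends of the colour scale, with rescaled KO 1 at the right and grey where it has no value. WT 2 is the highest of the 5 libraries in 17 of 37 members, and 6 of the 8 leukocyte integrins are highest in KO 2 and next in WT 2.

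Of the 8 leukocyte integrins, 6 were highest in KO 2 and next in WT 2. Itgb2 is the beta subunit that pairs with Itgal, Itgam, Itgax and Itgad. It stood at 2.03, 2.85 and 2.04 in WT and at 2.99 in KO 2 and 1.75 in KO 3. Itgal, which pairs with it on lymphocytes, stood at 1.43, 2.07 and 1.25 in WT and at 2.42 and 1.27 in KO. Itgax, the CD11c subunit of dendritic cells, stood at 2.19, 2.83 and 2.02 in WT and at 2.90 and 2.11 in KO. The 3 genes share the order KO 2 and WT 2 above the rest, and the genotypes overlap in each. Itga4, which joins Itgb7 to form the gut homing receptor, stood at 3.05, 3.63 and 2.78 in WT and at 3.74 and 2.88 in KO. Itgb7 stood at 1.77, 2.04 and 1.40 in WT and at 2.32 and 1.78 in KO, with the most positive log2 difference of the 37, 0.31 ± 0.26 (SE; unadjusted p = 0.273, limma); it was 0.05 without KO 2 and 0.58 without KO 3. Itgae, the subunit of T cells within the epithelium, stood at 1.191, 1.594 and 1.204 in WT and at 1.68 and 1.33 in KO (log2 difference 0.18 ± 0.20, SE, limma). That difference was at 0 to 2 decimals without KO 2. These 6 genes were each higher in KO 2 than in KO 3 and in WT 2 than in WT 3.

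The remaining pair behaved otherwise. Itgam, the CD11b subunit of macrophages and neutrophils, stood at 3.03, 3.49 and 3.45 in WT and at 3.39 and 2.98 in KO, so that WT 3 was high for it. Itgad was near 0, at 0, 0 and 0.03 in WT and at 0.14 and 0.03 in KO. It is the 1 member whose groups did not overlap, by a margin between WT 3 and KO 3 that is small beside the spread in KO, with a log2 difference of 0.08 ± 0.05 (SE; unadjusted p = 0.144, limma). In all, 7 of the 8 leukocyte integrins were higher in KO, beside 61.1% of all genes tested, with a median log2 difference of 0.16. That count rested on KO 2, without which 1 of 7 was higher with a median of -0.27, and on WT 3, without which 3 of 7 were higher. Itgad was above 0 only in WT 3, KO 2 and KO 3. It thus passed the filter of 3 or more libraries above 0 through the KO libraries, and gives that count no support. It left the fit when any of these libraries was left out, hence the total of 7. Exons of Itgad overlap those of genes on both strands.

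Markers and partners of leukocytes moved with these integrins. The 10 leukocyte markers, none at 0 in any of the 5 libraries, had a median against the 5-library mean of 0.9997 in KO 2 and 0.39 in WT 2, and of -0.22, -0.43 and -0.49 in WT 1, WT 3 and KO 3. Their summed linear level ranged from 39.3 to 100.2 in WT and from 41.5 to 131.4 in KO. Ptprc, which encodes CD45 of all leukocytes, stood at 5.52 in KO 2 and 5.03 in WT 2 and at 3.519 to 4.001 elsewhere. The B cell gene Cd79a stood at 4.03 in KO 2 and 3.10 in WT 2, at 1.25 in KO 3, and at 0.59 and 0.31 in WT 1 and WT 3. The steps were smaller in the macrophage markers Csf1r and Adgre1. Csf1r was highest in WT 2, at 3.54, with 3.35 in KO 2 and 2.85 to 3.15 elsewhere. Adgre1 stood at 2.79, 2.94 and 2.28 in WT and at 2.95 and 2.12 in KO. Madcam1, the vessel ligand of the Itga4 and Itgb7 receptor, stood at 1.998, 3.050 and 1.434 in WT and at 2.99 and 1.79 in KO. Fermt3, the kindlin of blood cells, stood at 1.83, 2.64 and 1.64 in WT and at 2.70 and 1.53 in KO. The part of leukocyte content in the integrin values was not tested.

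**Figure D4:**
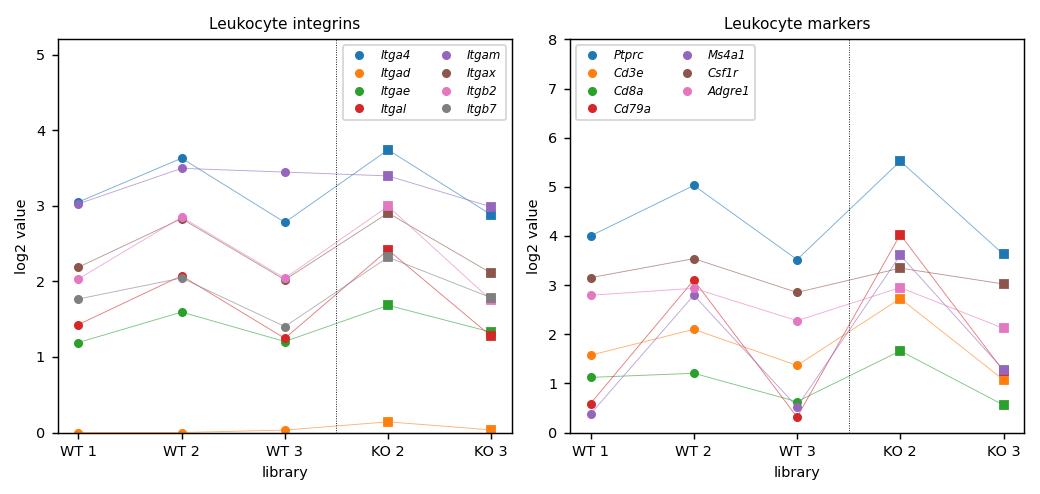
Log2 value (y axis) in the 3 WT libraries (circles) and KO 2 and KO 3 (squares) for the 8 leukocyte integrins (left) and 7 of the 10 leukocyte markers (right); thin lines only link the points of a gene. Itgb2, Itgal, Itgax and Itga4 are high in WT 2 and KO 2, as are Ptprc, Cd79a and Ms4a1.

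Many members differed between libraries numbered 2 and 3 in the sample titles in the same direction in both genotypes. The difference of number 2 minus number 3 had the same sign in WT and KO for 25 of 37 members (67.6%), beside 50.04% of all genes tested. Both differences were positive in 16 members, among them 7 of the 8 leukocyte integrins, and both negative in 9, among them Lamb3, Itgb6 and Itga6. Across the 37 members, which are not independent replicates, the 2 differences correlated at 0.72, beside 0.35 across all genes tested. The labels do not say that a number marks a shared animal, litter or day.

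WT 2 stood apart for stromal genes as well. It was the highest of the 5 libraries in 17 of the 37 members (45.9%), and WT 1 was the highest in 1. Fibroblast markers, 7 of 7 above 0 throughout, had a median of 0.44 in WT 2 and of -0.06 to -0.19 in the other 4 libraries, and their summed linear level was 518.6 in WT 2 against 345.2 to 378.0 elsewhere. All 7 fibroblast markers were also lower in KO by their means, beside 61.1% of all genes tested that were higher. Their median log2 difference was -0.21, with 0 past the threshold, and the part of WT 2 in it was not tested. Both KO libraries lay below every WT library in 3 of them, Pdgfra, Dpt and Mfap4, where 3.77% of all genes did so. Epithelial markers were at their lowest in WT 2, with a median of -0.21. The part of stromal content in the laminin values was not tested.

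The partners of integrins and laminins likewise held no gene past the threshold by limma. Of 15 basement membrane genes, 3 were higher and 12 lower in KO, beside 61.1% of all genes tested that were higher. Their median log2 difference was -0.06, with 0 at an unadjusted p under 0.05 by limma. Against the 5-library mean, their median was 0.34 in WT 2 and -0.15 to 0.03 in the other libraries. The part of WT 2 in the count was not tested. Nid1, the nidogen that bridges laminin and collagen IV, stood at 4.87, 5.48 and 4.99 in WT and at 5.01 and 5.13 in KO. Col4a1, a collagen IV chain, stood at 6.06, 6.55 and 6.23 in WT and at 6.06 and 6.16 in KO. Both were highest in WT 2. Of 4 hemidesmosome genes, 2 were higher and 2 lower, and Col17a1 had the smallest p (log2 difference 0.21, unadjusted p = 0.0140, adjusted p = 0.999978, limma), at 0.26 to 0.34 in WT and 0.50 and 0.54 in KO. Of 27 activators and adaptors, 15 were higher and 12 lower with a median of 0.01. Talin, Tln1, which switches integrins on, ranged from 5.45 to 5.72 in WT and stood at 5.57 and 5.48 in KO. Of 17 other ligands, 8 were higher and 9 lower, and Tnc, an extracellular ligand of Itga9, stood at 4.71, 5.37 and 4.83 in WT and at 4.76 and 4.57 in KO. Among all these partners, both KO libraries lay above every WT library in Dag1 and Col17a1, and below in Dst, Cd151, Col3a1 and Emilin1. Over all genes tested, 9.82% lay above and 3.77% below.

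After rescaling, KO 1 was low in most members that it covers. To bring it to the scale of the rest, its values were taken off the log and divided by 2.12, its median ratio to their mean level across 2160 genes with log2 values of at least 4. So rescaled, it lay below the range of the other 5 libraries in 16 of the 21 covered members, where 39.7% of covered genes did, above it in 1, where 18.2% did, and inside it in 4. Since it is 1 library, no test was made. Of the 16, Itgb5 lay 0.0029 below it. KO 1 lay more than 1 below the range in 5 members, beside 3.55% of covered genes. Itga5 was at 2.60 against 4.93 to 6.16, Itga1 at 3.16 against 5.05 to 5.49, Itga7 at 0.87 against 2.48 to 2.94, Lamb3 at 1.51 against 2.76 to 4.02 and Itgb3 at 1.78 against 2.88 to 3.52. These are also the 5 members that were below the range as deposited, with no rescaling. As deposited, 7 members lay above the range and 9 inside it. Of covered genes, 12.6% then lay below it and 66.0% above.

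The laminin chains of muscle, vessels and stroma were low in KO 1 by smaller steps. After rescaling, Lamc1 was at 3.75 against 4.72 to 5.32 in the other 5 libraries, Lama4 at 3.58 against 4.47 to 4.95, Lama2 at 2.43 against 3.22 to 3.84 and Lamb1 at 4.22 against 4.82 to 5.35. As deposited, these 4 chains lay inside the range, so their place depends on the rescaling. The epithelial laminin receptor subunits Itga3 and Itgb4 stood elsewhere. Itga3 was above the range, at 5.68 against 5.04 to 5.37, and Itgb4 inside it, at 5.01 against 4.77 to 5.08. Itgae at 1.45, Itgb2 at 1.83 and Itga2b at 0.47 were the other members inside it. Other epithelial members lay below the range, so epithelial genes did not share 1 position. Itga2 was at 3.43 against 3.92 to 4.07 and Lama3 at 2.19 against 2.30 to 2.92, and Lamb3 is given above. As deposited, Itga2, Lama3 and Itgb4 lay above the range, so these places depend on the rescaling as well. Itga3 lay above it with and without the rescaling.

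After rescaling, most covered marker genes of KO 1 also lay outside the range of the other 5 libraries. Of all covered genes, 39.7% lay below that range and 18.2% above it. Marker positions as deposited were not counted. Of the smooth muscle list, the 3 covered markers were at 3.799 (Myh11), 2.25 (Des) and 5.59 (Mylk) after rescaling, against 7.34 to 7.82, 6.82 to 7.37 and 7.35 to 7.70 in the other 5 libraries. Over 5 covered fibroblast markers its median was -1.85 against the 5-library mean, over 3 covered leukocyte markers -0.73, and over 7 covered epithelial markers 0.27. All 5 of these fibroblast markers lay below the range and 2 of the 3 leukocyte markers did, with Ptprc inside it. Of the epithelial markers 4 lay above the range, 1 inside, and 2 below, Krt18 and Cdx1. Of 15 covered activators and adaptors, 12 lay below the range, 1 above (Sharpin) and 2 inside, with a median of -0.62 against the 5-library mean. Among them, the actin linker Tns1 stood at 2.80 against 5.82 to 6.41, and the kindlin Fermt2 at 3.27 against 5.05 to 5.70. The part of muscle and stroma content, and of gut position, in the KO 1 values was not tested. With the log read as base e instead, 18 of the 21 members lay below the range and Itga3 still lay above it.

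**Figure D5:**
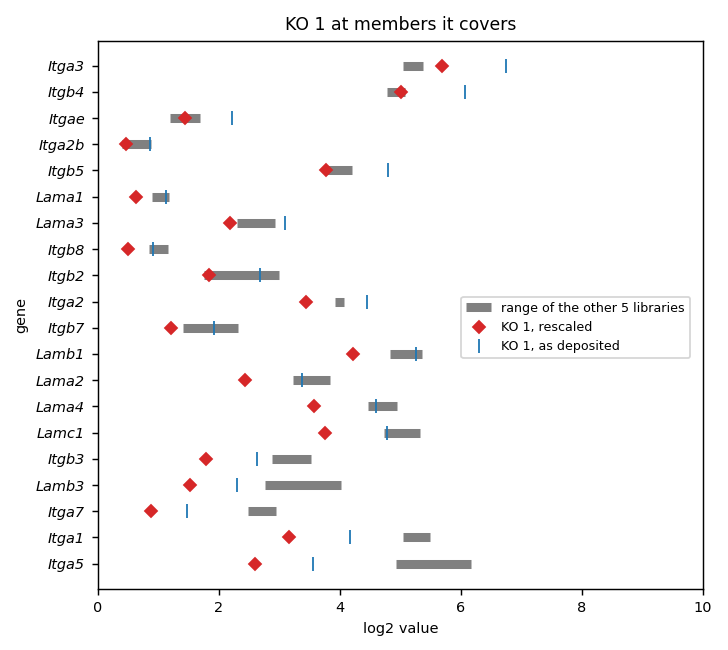
Log2 value (x axis) of KO 1 at 20 of the 21 members it covers (y axis), rescaled (red diamonds) and as deposited (blue ticks), with the range of the other 5 libraries as grey bars. Rescaled KO 1 lies below the range in 15 of those shown, furthest for Itga5 and Itga1, and above it in Itga3.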

How the data were processed

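The authors deposited 1 table of log values, which is treated as log2 of abundance plus 1. Per the submitters' processing notes, reads were placed on mm10. Aligner, counting tool, strand setting, abundance unit, log base and constant were not given in the sources used here, and depth is unknown. Base 2 is an assumption: under base e every log2 difference would be larger by one constant factor. Of 32245 rows, 26 with a date for a symbol were left out, and each column matched 1 sample title. GENCODE vM21 (GRCm38) placed 31458 symbols.

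A gene entered the test if 3 or more of the 5 libraries fitted had it above 0 (22047 genes, all 37 members among them). KO 2 and KO 3 were compared with 3 WT libraries by the 2-sided moderated test of limma (3.58.1, under R 4.3.3), using a mean-variance trend and group as the sole term, with Benjamini-Hochberg adjustment over all genes kept. The test was also run on simulated data, with changes placed only in genes at or above the median level. That run is not used as support for any result here. KO 1 was left out because of its gap. Every member is named except 1, which with 1 marker gene is not reported here; both stay in the counts. Differences with standard errors are given for the 12 members with the smallest p, since none had a p under 0.05. The members, roles, partner and marker lists were chosen with earlier results of these data known. Exons of 12 members overlap those of other genes, 9 of them on the opposite strand. KO 1 positions under base e and as deposited were added after seeing the data.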

Additional observations from a re-analysis of the deposited data

How the results depend on the processing

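No member passed under any of the 16 alternatives run by limma, which were the filters, constants, scalings, variance models, libraries and log base planned for it; the smallest adjusted p of a member was 0.718, with all 6 libraries as deposited. The 1 gene called among all genes was lost (0 called) with no filter, the stricter filter, an added constant of 0.1, the replicate block and all 6 libraries as deposited, and leaving out any 1 library gave 0 to 0. The 16 members higher in KO became 10 with KO 1 rescaled and missing where it holds no values, and 10 to 19 over left-out libraries. Median centring and quantile normalization gave 12 higher each. Their median difference of -0.04 became -0.28 with all 6 libraries as deposited, where the zeros of KO 1 enter as values, and was -0.12 to 0.0074 over left-out libraries. With all 6 libraries as deposited, Itgb5 turned to 0.086 and Itga3 to 0.44; with KO 1 rescaled, Itgb8 turned to -0.063 and Itga3 to 0.080. Over left-out libraries, Itgb3 ran from -0.30 to 0.019 and Itgae from -0.00094 to 0.35. Where a left-out library leaves 1 KO library, it is assumed to vary like the WT libraries. Base e multiplied every difference and its standard error by the same factor, so that alternative could not change a call. With the replicate number as a block, 0 genes were called and 11 members were higher, with a median of -0.11. Deviations of same-numbered libraries correlated over all genes at 0.28 for number 2 and 0.33 for number 3. Number 1 has no KO library in the fit and the 2 KO deviations mirror each other, so pairing cannot be settled. With 2 KO libraries, the 95% intervals of the members had a median half-width of 0.44, from 0.11 to 1.05. An estimate smaller than the half-width of its member could not exclude 0.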
